A study of Mus musculus with 12 samples.

Results

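The genes described here encode the writers and erasers of 2 histone marks, H3K4me3 and H3K27me3, and the Polycomb proteins that work beside them. They were taken from a list of 41 genes by role, and all 41 were found among the 21887 protein-coding genes of the mouse gene table on chromosomes 1 to 19, X and Y. For each gene the bp covered by H3K4me3 peaks within 1 kb of the gene start were measured, in a window of 2001 bp, and H3K27me3 peaks over the gene or 5 kb of flank. The samples were CUT&Tag libraries of organoids derived from PyMT mouse breast tumours, labelled WT in genotype. PyMT is the polyoma middle T oncogene, and all groups share it, while the promoter that drives it is not named in the labels. SR2 and THC are the treatment names in the labels, which do not spell out SR2. The groups were SR2-treated, THC-treated and Ctrl organoids at day 3 after treatment, with 2 libraries per group for each mark, 12 in all. The labels give each replicate number as a batch number as well, but not whether replicates came from separate cultures. The p-values below therefore reflect only how far these libraries vary, which may be technical. The title of the series concerns the cannabinoid receptor CB2R and luminal differentiation.

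H3K4me3 marks the starts of active genes and is laid down by the SET1 and MLL (KMT2) methyltransferases with a shared set of subunits, while the KDM5 enzymes remove it. H3K27me3 is laid down by Polycomb repressive complex PRC2 and removed by KDM6 enzymes. Its readers of the Cbx family belong to PRC1, a complex that puts ubiquitin on histone H2A. In mammary epithelium these complexes are known for keeping luminal and basal programmes apart, and several of their genes are mutated in breast cancer.

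Most of the starts of these genes lie in CpG-rich sequence, so 4 promoters are shown that carry the contrasts described below. Phf19 was without an H3K4me3 peak in a THC library, Kdm6a and Cbx8 had H3K27me3 called at or just upstream of the start beside H3K4me3, and Ezh2 was covered by H3K4me3 in every library. Each run is the 250 bases before the start, 5′ to 3′ on the gene's strand, from RefSeq on GRCm38.p6, with CpG dinucleotides in capitals. The Phf19 run is chr2:34913977-34914226 (minus strand), the Kdm6a run chrX:18162325-18162574 (plus strand), the Cbx8 run chr11:119040914-119041163 (minus strand) and the Ezh2 run chr6:47595031-47595280 (minus strand).
Phf19: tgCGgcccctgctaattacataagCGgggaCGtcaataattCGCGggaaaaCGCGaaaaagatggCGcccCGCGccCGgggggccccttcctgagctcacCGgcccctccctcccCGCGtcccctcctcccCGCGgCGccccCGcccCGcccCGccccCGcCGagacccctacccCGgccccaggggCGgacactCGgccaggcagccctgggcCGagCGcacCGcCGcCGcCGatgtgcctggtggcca
Kdm6a: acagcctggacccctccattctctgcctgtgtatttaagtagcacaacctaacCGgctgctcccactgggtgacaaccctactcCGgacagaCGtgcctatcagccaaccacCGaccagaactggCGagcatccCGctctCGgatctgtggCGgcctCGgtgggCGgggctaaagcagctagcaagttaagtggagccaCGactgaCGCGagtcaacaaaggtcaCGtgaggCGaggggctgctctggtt
Cbx8: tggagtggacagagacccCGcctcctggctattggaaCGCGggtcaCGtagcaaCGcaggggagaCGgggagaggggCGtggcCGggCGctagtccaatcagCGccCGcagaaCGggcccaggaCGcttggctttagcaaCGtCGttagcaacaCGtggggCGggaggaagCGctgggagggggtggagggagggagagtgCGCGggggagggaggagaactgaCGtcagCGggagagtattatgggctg
Ezh2: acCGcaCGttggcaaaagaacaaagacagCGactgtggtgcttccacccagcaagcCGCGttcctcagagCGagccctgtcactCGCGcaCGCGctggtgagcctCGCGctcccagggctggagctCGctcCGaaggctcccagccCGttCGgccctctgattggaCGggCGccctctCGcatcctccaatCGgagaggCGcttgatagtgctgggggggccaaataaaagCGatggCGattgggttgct
The runs hold 31 CpGs at Phf19, 15 at Kdm6a, 22 at Cbx8 and 23 at Ezh2.

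The H3K4me3 lists held 14812 and 15190 peaks in SR2, 11924 and 13229 in THC, and 18383 and 16442 in Ctrl (replicates 1 and 2). Peak lists hold no read totals, so the depth behind each value is unknown. THC replicate 1 stood apart, with a mean peak length of 756 bp against 901 to 1012 bp in the other 5 libraries, and it had the lowest covered bp of all 6 libraries at 33 of the 40 marked genes of the list, beside 74.1% of all 12028 genes tested. Among marker genes, 4 of 6 luminal epithelial genes (Krt8, Epcam, Cdh1 and Cldn4) were marked at their start in all 6 libraries, and Krt18 and Krt19 in all but THC replicate 1. The summed bp over the 6 luminal genes ran from 5939 to 5970 in SR2, 2820 to 5672 in THC and 6397 to 6486 in Ctrl. Of the basal genes Krt5, Krt14, Krt17 and Acta2, the keratins were marked in every library except THC replicate 1, and Acta2 in none. The summed bp over the 4 basal genes ran from 2522 to 4262 in SR2, 0 to 2707 in THC and 3943 to 3959 in Ctrl. Starts of 4 of 5 fibroblast genes, 3 of 4 leukocyte genes (Ptprc among them) and 2 of 3 endothelial genes (Pecam1 and Cdh5) had 0 bp in all 6 libraries. Summed over the 5 fibroblast genes the cover was 46 to 242 bp in SR2, 0 bp in THC and 131 to 213 bp in Ctrl, over the 4 leukocyte genes 0 bp, 0 to 317 bp and 349 to 391 bp, and over the 3 endothelial genes 0 to 559 bp, 0 bp and 559 to 897 bp. The part of these differences in the values below was not tested.

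H3K4me3 lay at the start of nearly every gene of the list. In all 6 libraries 38 of the 41 starts were marked, against 46.1% of all protein-coding genes, and leaving out any single library gave 38 or 39. The exceptions were Phf19, Kdm6b and Ash2l. Marked starts numbered 40 and 39 in SR2, 39 and 39 in THC, and 40 and 40 in Ctrl, while the share of all genes marked was 51.8% and 53.8% in SR2, 46.9% and 50.7% in THC, and 56.3% and 54.3% in Ctrl. The strongest peaks at these starts mostly ranked above the middle of their lists, and no such rank is available for the starts of all genes. Ranked by the authors' −log10 q within its own list, the strongest peak at a start had a median percentile of 74.2 and 73.3 in SR2, 67.1 and 73.2 in THC, and 79.2 and 78.1 in Ctrl. In Ctrl, 29 of the 40 marked genes were broader than the median gene tested and 12 lay above the 90th percentile.

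**Figure D1:**
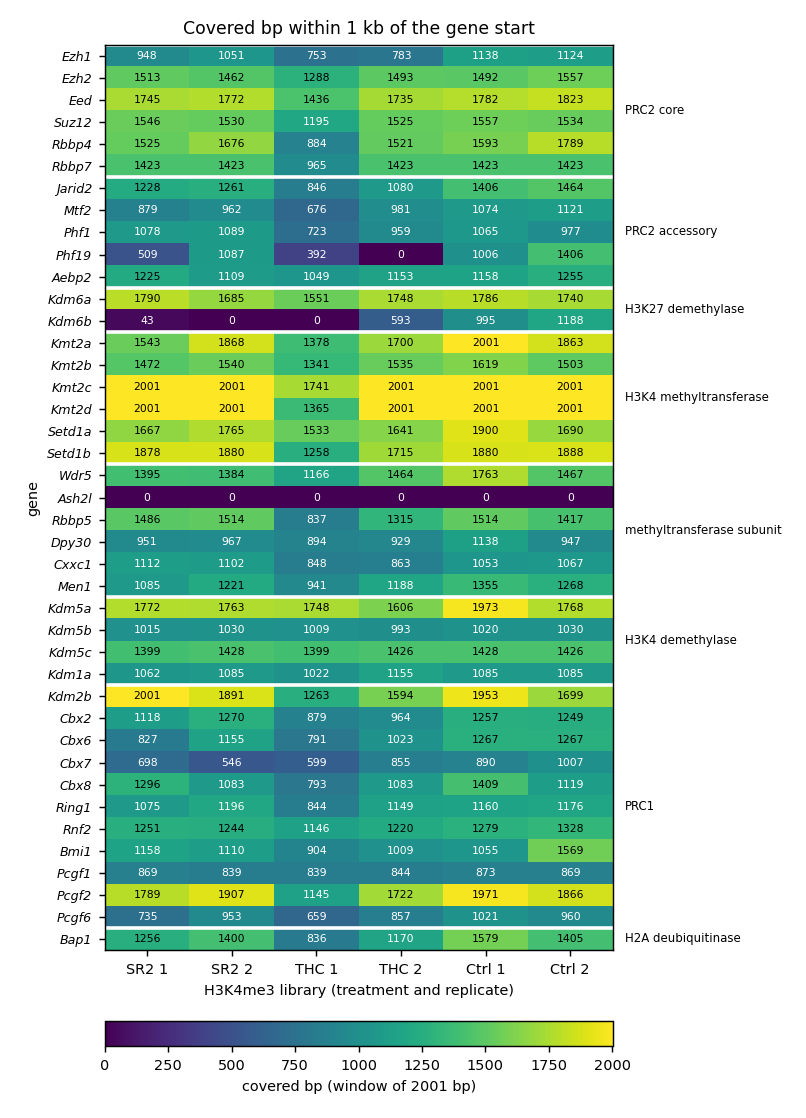
Covered bp of H3K4me3 within 1 kb of the gene start for the 41 genes (rows, by role) in the 6 libraries (columns, SR2, THC and Ctrl, replicates 1 and 2). Colour and number give the bp, and the dark cells at Ash2l, Kdm6b and Phf19 are the only starts with 0 bp.

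The core of PRC2 was marked throughout. Its genes are Ezh2 and Ezh1, which encode the alternative methyltransferases, Eed and Suz12, which hold the enzyme active, and Rbbp4 and Rbbp7, which encode histone-binding proteins. Ezh2 had 1513 and 1462 bp in SR2, 1288 and 1493 bp in THC, and 1492 and 1557 bp in Ctrl, with the lowest value in THC replicate 1 and overlapping groups. All 250 bases shown for Ezh2 lay inside an H3K4me3 peak in each of the 6 libraries. Ezh1 was narrower than the other core genes, with 948 and 1051 bp in SR2, 753 and 783 bp in THC, and 1138 and 1124 bp in Ctrl. Both THC libraries were below both SR2 libraries there, and both SR2 libraries below both Ctrl libraries. Of all genes tested, 46.7% had the first order and 45.9% the second. Over the 6 core genes the group mean ran from 999.5 to 1758.5 bp in SR2, 768 to 1585.5 bp in THC and 1131 to 1802.5 bp in Ctrl.

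Among the accessory genes of PRC2, Phf19 was the one with an uneven mark. Phf19, Mtf2 and Phf1 encode the Polycomb-like proteins that help bring PRC2 to CpG-rich DNA, and Jarid2 and Aebp2 encode the partners of the other form of the complex. At the Phf19 start, H3K4me3 covered 509 and 1087 bp in SR2, 392 and 0 bp in THC, and 1006 and 1406 bp in Ctrl. Both THC libraries lay below both SR2 and both Ctrl libraries, while SR2 and Ctrl overlapped. In such bulk libraries, fewer cells with the mark and less mark per cell cannot be told apart. The depth of each library is also unknown, and the THC lists were the shortest, with 11924 and 13229 peaks. Of the 250 bases shown for Phf19, 45 and 250 lay inside a peak in SR2, 209 and 0 in THC, and 250 and 250 in Ctrl. The Phf19 peaks were weak ones, at percentiles of 21.6 and 31.5 in the SR2 lists, 7.4 in THC replicate 1, and 40.9 and 37.3 in the Ctrl lists. A further H3K4me3 region inside Phf19 (chromosome 2, 34904673 to 34905550, mm10) had a peak in each library, of 690 and 673 bp in SR2, 509 and 489 bp in THC, and 878 and 729 bp in Ctrl. Jarid2 had 1228 and 1261 bp at its start in SR2, 846 and 1080 bp in THC, and 1406 and 1464 bp in Ctrl, with no overlap between the 3 groups. Both THC libraries lay below both Ctrl libraries at all 5 accessory genes, beside 80.7% of all genes tested. They lay below both SR2 libraries at 3 of the 5, beside 46.7% of all genes. Both SR2 libraries lay below both Ctrl libraries at 2 and above them at 1, beside 45.9% and 2.04% of all genes. Phf1 had 1078 and 1089 bp in SR2, 723 and 959 bp in THC, and 1065 and 977 bp in Ctrl. Mtf2 and Aebp2 were marked in all 6 libraries, with 676 to 1153 bp in THC and 879 to 1225 bp in SR2, against 1074 to 1255 bp in Ctrl.

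Kdm6a and Kdm6b, which encode the H3K27 demethylases, differed from each other in how evenly they were marked. Kdm6a, on the X chromosome, had 1790 and 1685 bp in SR2, 1551 and 1748 bp in THC, and 1786 and 1740 bp in Ctrl, with groups that overlapped. For Kdm6b the promoter table holds no start, so the window was set at the end of the gene model with the more H3K4me3 (chromosome 11, position 69420367). This window held 43 and 0 bp in SR2, 0 and 593 bp in THC, and 995 and 1188 bp in Ctrl. Both SR2 and both THC libraries were thus below both Ctrl libraries, which held for SR2 at 45.9% and for THC at 80.7% of all genes tested. The value turns on where the window ends. The whole region that reaches this end (69417534 to 69420554) carried peaks in each library, of 1161 and 1828 bp in SR2, 679 and 1297 bp in THC, and 2672 and 2894 bp in Ctrl, and in SR2 replicate 2 its peak began 1006 bp inside the gene end, just past the window. A broad region further inside the gene (69408483 to 69411930) covered 3074 and 3248 bp in SR2, 2406 and 3113 bp in THC, and 3217 and 3448 bp in Ctrl. That inner region was present in every library, while 2 shorter ones inside the gene were not. The region from 69415574 to 69416361 had 446 and 0 bp in SR2, 0 and 265 bp in THC, and 720 and 528 bp in Ctrl. The region from 69401201 to 69401750 had 422 and 326 bp in SR2, 0 bp in both THC libraries, and 295 and 280 bp in Ctrl.

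**Figure D2:**
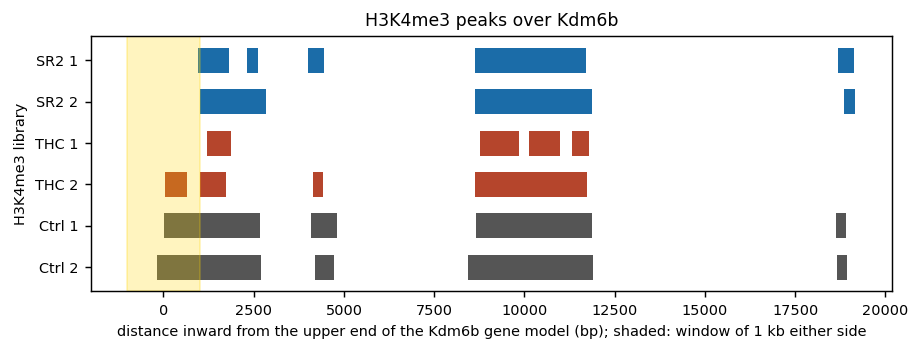
H3K4me3 peaks over Kdm6b in the 6 libraries (rows, SR2, THC and Ctrl, replicates 1 and 2) by distance in bp inward from the end of the gene model at the higher coordinate. The shaded window holds 43 and 0 bp of peak in SR2, 0 and 593 bp in THC and 995 and 1188 bp in Ctrl, while the broad inner region is present in all 6.

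Taken as a group, the H3K4 methyltransferase genes had the highest median breadth in Ctrl within the 2001 bp window, at percentile 98.5. In Ctrl all 6 lay between percentiles 88.8 and 99.7 of breadth among the 12028 genes tested, a description with no test. Single genes of other groups, such as Pcgf2 (98.6) and Kdm5a (98.0), lay above Kmt2b (88.8). Kmt2c and Kmt2d encode the enzymes best known for enhancer methylation. Kmt2c filled the window of 2001 bp in both SR2 and both Ctrl libraries and in THC replicate 2, and had 1741 bp in THC replicate 1. Kmt2d likewise filled it in those 5 libraries and had 1365 bp in THC replicate 1. The full length of the Kmt2d peaks, past the window, was 2650 and 2960 bp in SR2, 1691 and 2775 bp in THC, and 3074 and 3015 bp in Ctrl. Kmt2a, whose product is the MLL protein that keeps Hox genes on, had 1543 and 1868 bp in SR2, 1378 and 1700 bp in THC, and 2001 and 1863 bp in Ctrl. Kmt2b, its nearest relative, had 1472 and 1540 bp in SR2, 1341 and 1535 bp in THC, and 1619 and 1503 bp in Ctrl, with overlapping groups. Setd1a and Setd1b encode the enzymes of the SET1 complexes and averaged 1716 and 1879 bp in SR2, 1587 and 1486.5 bp in THC, and 1795 and 1884 bp in Ctrl.

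**Figure D3:**
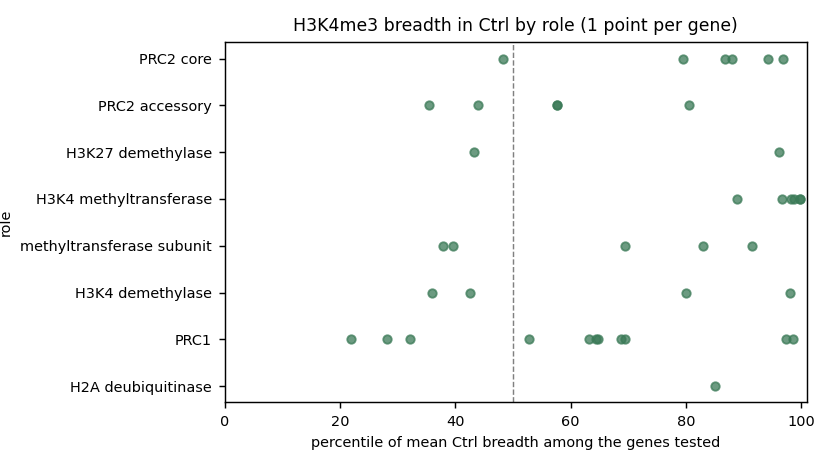
Percentile of mean Ctrl H3K4me3 breadth among the 12028 genes tested (x axis) for the 40 marked genes, 1 point per gene, by role (y axis). The 6 H3K4 methyltransferase genes lie between 88.8 and 99.7, while PRC1 genes spread from 22 to 98.6, with the dashed line at the median gene.

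The subunits shared by these enzymes were less broad. Wdr5, Rbbp5, Ash2l and Dpy30 encode the common core, Cxxc1 the CpG-binding subunit of the SET1 complexes and Men1 (menin) a partner of the MLL proteins. Rbbp5 had 1486 and 1514 bp in SR2, 837 and 1315 bp in THC, and 1514 and 1417 bp in Ctrl, with the lowest value in THC replicate 1. Dpy30 had 951 and 967 bp in SR2, 894 and 929 bp in THC, and 1138 and 947 bp in Ctrl. These values belong to the annotated Dpy30 start inside the gene model at chromosome 17, position 74316433. The starts at 74316394 and 74316211 had the same cover, and the outermost start at 74323944 had 0 bp in all 6 libraries. Ash2l had 0 bp at both gene ends in all 6 libraries, and the promoter table holds no start for it. Its H3K4me3 lay inside the gene model (chromosome 8, 25840125 to 25841634), with 1345 and 1411 bp in SR2, 1305 and 1451 bp in THC, and 1510 and 1484 bp in Ctrl. Ash2l therefore counts as unmarked by the window, while a region within the gene was marked in every library. Over the other 5 subunit genes, Wdr5, Cxxc1 and Men1 included, the group mean ran from 959 to 1500 bp in SR2, 855.5 to 1315 bp in THC and 1042.5 to 1615 bp in Ctrl.

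Among the H3K4 demethylase genes, Kdm1a and Kdm5c had nearly the same cover in every group. Kdm5a, Kdm5b and Kdm5c encode the enzymes that remove H3K4me3, and Kdm1a encodes LSD1, which acts on the lower methyl states. Kdm1a had 1062 and 1085 bp in SR2, 1022 and 1155 bp in THC, and 1085 and 1085 bp in Ctrl. Kdm5c had 1399 and 1428 bp in SR2, 1399 and 1426 bp in THC, and 1428 and 1426 bp in Ctrl. The groups overlapped at Kdm1a and at Kdm5c, and the window limits both. In both Ctrl libraries the side of the Kdm1a and Kdm5c windows inside the gene was full, and the full length of the Kdm5c peaks was 1458 and 1608 bp in SR2, 1540 and 1575 bp in THC, and 1907 and 1672 bp in Ctrl. Kdm5a averaged 1767.5 bp in SR2, 1677 bp in THC and 1870.5 bp in Ctrl, and Kdm5b 1022.5, 1001 and 1025 bp in the same groups. Peaks ran past the window in all 6 libraries at 9 of the 40 marked genes, Kdm5b and Kdm5c among them, and the window was full in at least 1 library at 4.

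PRC1 genes ranged widely in breadth, from percentile 22 to 98.6 in Ctrl. Ring1 and Rnf2 encode the ubiquitin ligases, Cbx2, Cbx6, Cbx7 and Cbx8 the readers of H3K27me3, and Bmi1, Pcgf1, Pcgf2 and Pcgf6 the subunits that set the form of the complex. Kdm2b encodes the protein that brings a form with Pcgf1 to unmethylated CpG islands. Kdm2b had 2001 and 1891 bp at its broadest start in SR2, 1263 and 1594 bp in THC, and 1953 and 1699 bp in Ctrl. Both THC libraries were below all others, and SR2 and Ctrl overlapped. Starts inside Kdm2b, near chromosome 5 position 122900350, also carried peaks in each library, of 1196 and 1313 bp in SR2, 962 and 1221 bp in THC, and 1351 and 1280 bp in Ctrl. Pcgf1 had the least H3K4me3 in Ctrl of the marked genes within the window, with 869 and 839 bp in SR2, 839 and 844 bp in THC, and 873 and 869 bp in Ctrl, in a window set at a gene end. Its peaks ran past the window, to full lengths of 1409 and 1286 bp in SR2, 1335 and 1195 bp in THC, and 1485 and 1348 bp in Ctrl. Its peak stood at percentiles of 91.2 to 97.2 in the 6 lists. Cbx7 had 698 and 546 bp in SR2, 599 and 855 bp in THC, and 890 and 1007 bp in Ctrl, so both SR2 and both THC libraries were below both Ctrl libraries. Pcgf6, which belongs to a variant PRC1, had 735 and 953 bp in SR2, 659 and 857 bp in THC, and 1021 and 960 bp in Ctrl, so both SR2 and both THC libraries were again below both Ctrl libraries. Such separation was common. Both THC libraries lay below both Ctrl libraries at all 11 PRC1 genes, and both SR2 libraries did at 4, beside 80.7% and 45.9% of all genes tested. Both THC libraries lay below both SR2 libraries at 5 of the 11, beside 46.7% of all genes. Cbx8 had 1296 and 1083 bp in SR2, 793 and 1083 bp in THC, and 1409 and 1119 bp in Ctrl. Cbx2, next to Cbx8 on chromosome 11, had 1118 and 1270 bp in SR2, 879 and 964 bp in THC, and 1257 and 1249 bp in Ctrl. Ring1, Rnf2, Bmi1, Cbx6 and Pcgf2 were marked in all 6 libraries, with 827 to 1907 bp in SR2, 791 to 1722 bp in THC and 1055 to 1971 bp in Ctrl. Bap1, which encodes the H2A deubiquitinase that opposes PRC1, averaged 1328 bp in SR2, 1003 bp in THC and 1492 bp in Ctrl, in a window that also holds a start of Phf7.

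SR2 was set against Ctrl to ask whether these genes differ in H3K4me3 breadth after treatment. None of the 40 marked genes passed by limma with Benjamini-Hochberg adjustment over the 12028 genes tested (smallest adjusted p 0.734), beside 0% of all genes. At an unadjusted p under 0.05 limma had 1 gene of the list narrower (Kdm6b) and 0 wider, beside 3.15% narrower and 0.349% wider of all genes tested. The log2 change of breadth, on log2(covered bp + 200) and relative to the median of genes marked in all libraries, was −2.44 at Kdm6b (SE 0.59, adjusted p 0.734). This value is set largely by the pseudocount, since SR2 held 43 and 0 bp, and it was −3.94 with 50 bp and −0.96 with 1000 bp added. With a window of 2 kb it was −0.91. Kdm2b followed at 0.19 (SE 0.09) and Cbx7 at −0.38 (SE 0.18), each with an adjusted p of 1.00 by limma. The median over the 40 genes was 0.06, against 0.00 over all genes. In covered bp without centring, both SR2 libraries lay below both Ctrl libraries at 12 of the 40 genes and above them at 2, beside 45.9% and 2.04% of all genes. Within batch 1 SR2 was lower than Ctrl at 30 of the 40 genes (89.3% of all genes), and within batch 2 at 23 (59.8% of all genes).

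THC was set against Ctrl in the same fit, with the same Ctrl libraries. Again 0 of 40 genes passed by limma after adjustment (smallest adjusted p 0.217), beside 0% of all genes. At an unadjusted p under 0.05, 7 were wider and 2 narrower relative to the centring, beside 8.03% wider and 11.5% narrower of all genes. The wider 7 were Kdm1a, Kdm5c, Kdm5b, Kdm6a, Kmt2b, Kmt2c and Ezh2, and the narrower were Phf19 and Jarid2. In covered bp the THC mean was below the Ctrl mean at Kdm5b, Kdm6a, Kmt2c and Ezh2. Kmt2c filled the window in both Ctrl libraries. The full length of its peaks was 2105 and 2439 bp in THC, and 2729 and 2698 bp in Ctrl. Kdm1a had a log2 change of 0.32 (SE 0.08, adjusted p 0.217 by limma), Kdm5c 0.30 (SE 0.09) and Kmt2b 0.21 (SE 0.07). These directions are relative to a genome-wide shift, since without centring the median change of all genes was −0.35 for THC against Ctrl, −0.11 for SR2 against Ctrl and −0.22 for THC against SR2, and without centring Kdm1a stood at 0.00, Kdm5c at −0.013 and Kmt2b at −0.11. In covered bp within the window, therefore, Kdm1a, Kdm5c and Kmt2b differed less between THC and Ctrl than the typical gene did. The window cuts off their peaks in most or all libraries. With the full length of the peaks the centred log2 change was 0.22 at Kdm1a (SE 0.12), 0.19 at Kdm5c (SE 0.10) and 0.14 at Kmt2b (SE 0.07). Phf19 had a log2 change of −1.70 (SE 0.61, adjusted p 0.239 by limma), a value that depends on the pseudocount because a THC library had 0 bp. Jarid2 was at −0.18 (SE 0.07, adjusted p 0.255 by limma).

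Leaving out THC replicate 2 leaves a lone THC library, whose own spread cannot be measured, so effect sizes alone are given here for THC against Ctrl. Relative to the centring, the log2 change of that library against Ctrl was 0.42 at Kdm5c, 0.36 at Kdm5a, −2.24 at Kdm6b and −0.35 at Rbbp4. In covered bp none of these genes was wider in that library. Kdm5c had 1399 bp there against 1428 and 1426 bp in Ctrl, and Kdm5a 1748 bp against 1973 and 1768 bp. In covered bp, both THC libraries were below both Ctrl libraries at 32 of the 40 genes and above at 0, beside 80.7% and 0.108% of all genes. By batch, THC was lower than Ctrl at 40 of the 40 genes in batch 1 (98.6% of all genes) and at 33 in batch 2 (84.8% of all genes). Among the 38 genes marked in all libraries, the THC mean ran from 67.1% of the Ctrl mean at Jarid2 to 100.3% at Kdm1a, with a median of 81.9%, and the SR2 mean from 65.6% at Cbx7 to 106.6% at Kdm2b, with a median of 96.4%.

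**Figure D4:**
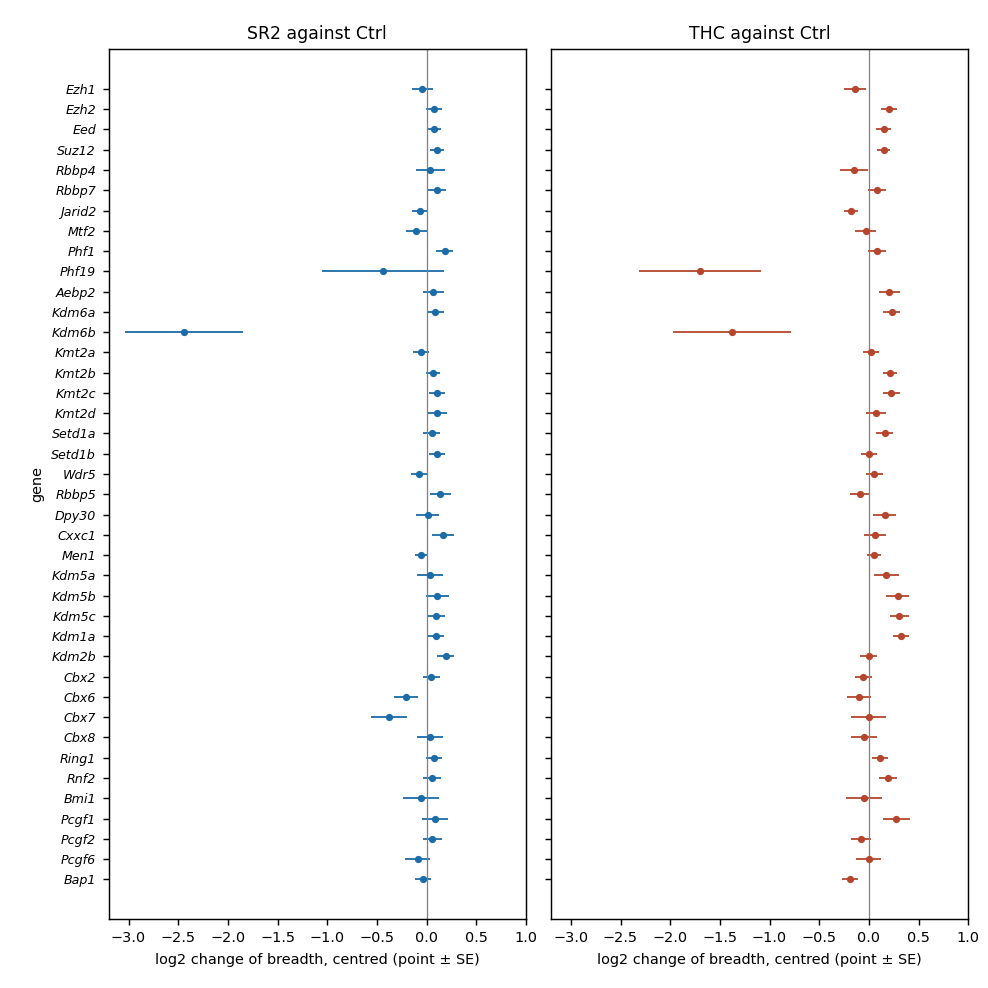
Log2 change of H3K4me3 breadth (x axis, centred, point with SE) for the 40 marked genes (y axis), SR2 against Ctrl on the left and THC against Ctrl on the right. Kdm6b (−2.44 and −1.38) and Phf19 (−0.43 and −1.70) stand left of the other genes with wide error bars, and no gene passed the adjusted threshold.

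THC and SR2 were compared with each other by the same fit. Of the 40 genes 0 passed by limma (smallest adjusted p 0.496), beside 0% of all genes. Before adjustment limma put 1 gene of the list under 0.05 as wider (Kdm1a) and 0 as narrower, beside 2.71% and 6.29% of all genes. Kdm1a had a log2 change of 0.22 (SE 0.08, adjusted p 0.496), Kdm2b −0.20 (SE 0.09, adjusted p 0.547) and Rbbp5 −0.23 (SE 0.10, adjusted p 0.547, all by limma). The Kdm1a value was −0.012 with a window of 2 kb. Without THC replicate 2 limma called 5 of the 40 genes, Kdm5a and Kdm5c as wider and Rbbp4, Rbbp5 and Pcgf2 as narrower, beside 6.94% of all genes wider and 14.1% narrower. That fit leaves a lone THC library, replicate 1, whose own spread cannot be measured. These calls therefore cannot be read as a difference between the groups. The log2 change at Rbbp5 in that fit was −0.37. Both THC libraries were below both SR2 libraries at 20 of the 40 genes and above at 0, beside 46.7% and 0.823% of all genes, and THC was lower than SR2 at 39 genes within batch 1 (85.1% of all genes) and 27 within batch 2 (77.1% of all genes).

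No gene of the list was marked at its start in both libraries of a group and in neither library of another. Of all genes marked in both Ctrl libraries, 1.63% had no peak in either SR2 library and 5.68% none in either THC library, and of those marked in both SR2 libraries 2.4% had none in either THC library. In the other direction, 0.0179% of genes marked in both SR2 libraries had no peak in either Ctrl library, and 0.0296% and 0% of genes marked in both THC libraries had none in SR2 and in Ctrl. Requiring at least 500 bp of peak, Kdm6b was marked in neither SR2 library and in both Ctrl libraries, and Phf19 in neither THC library and in both SR2 and both Ctrl libraries. Phf19 had 509 bp in SR2 replicate 1, just past this limit. No share of all genes was computed for this rule, so these calls cannot be set against the background.

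Further genes of the same complexes and enzyme families, 28 in number and taken by role, gave a like picture. They include the Phc genes of PRC1, the Asxl partners of Bap1 and the demethylase gene Kdm4a. H3K4me3 was at the start in all 6 libraries for 25 of them. Ncoa6 and the Y-linked Kdm5d had 0 bp in every library, and Kdm2a lacked a peak only in THC replicate 1. Of the 26 tested, 0 passed by limma after adjustment in any of the comparisons, and the median log2 change was 0.05 for SR2 and 0.08 for THC against Ctrl.

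H3K27me3 was called at few of these genes, and mostly in batch 1. The lists held 840 and 157 peaks in SR2, 984 and 70 in THC, and 2712 and 387 in Ctrl, so a gene without a peak in a short list is not shown to lack the mark. Of the 41 genes, 3 and 0 had a peak over the gene or its flank in SR2, 3 and 0 in THC, and 7 and 3 in Ctrl, beside 2.96% and 0.507% of all genes in SR2, 3.07% and 0.137% in THC, and 7.92% and 1.11% in Ctrl. In at least 1 library 9 of the 41 genes had a peak, beside 11.7% of all genes, and the median gene length was 26591 bp in the list and 17169 bp over all genes. Of the 16 distinct peaks, 14 came from batch 1 libraries and 2 from batch 2, and their median length was 416.5 bp.

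**Figure D5:**
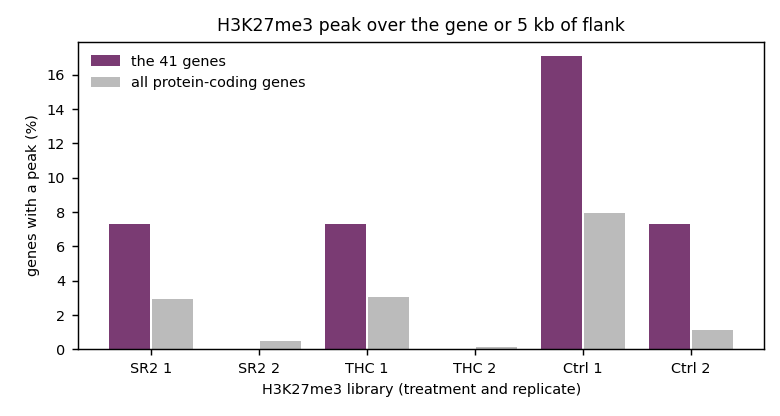
Share of genes with an H3K27me3 peak over the gene or 5 kb of flank (y axis, %) in each library (x axis, SR2, THC and Ctrl, replicates 1 and 2), for the 41 genes (dark bars) and all protein-coding genes (grey bars). Replicate 2 of SR2 and of THC had no peak at any of the 41 genes.

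At 5 of the 41 genes H3K27me3 was called within 1 kb of the start in at least 1 library, beside 6.13% of all genes. All 8 such peaks overlapped H3K4me3 peaks of all 6 libraries, a mark that 38 of the 41 starts carry in every library anyway. Kdm6a, which encodes an eraser of the mark, had 1042 bp in SR2 replicate 1, 348 bp in THC replicate 1 and 714 bp in Ctrl replicate 1, with none in the batch 2 libraries. The 250 bases shown for Kdm6a lay wholly inside the SR2 and Ctrl peaks, and 245 of them inside the THC peak, which ended 6 bp short of the start. At Cbx8 the peaks lay upstream of the start, ending 3 bp short of it in THC replicate 1 (499 bp long) and 56 bp short in Ctrl replicate 1 (462 bp long), and held 248 and 195 of the 250 bases shown. Ezh1 (330 bp), Dpy30 (251 bp) and Pcgf1 (459 bp) had such a peak in Ctrl replicate 1 alone. By the authors' −log10 q these peaks were spread over their lists, from percentile 7.89 at Ezh1 to 79.9 at Dpy30.

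Jarid2 was the gene with H3K27me3 in the most libraries, at a place far inside the gene. The peak (chromosome 13, about 138793 bp downstream of the start) spanned 44869568 to 44869978 in SR2 replicate 1, 44869571 to 44869992 in THC replicate 1, and 44869568 to 44870017 and 44869567 to 44869977 in the Ctrl libraries. It ranked at percentiles 91.0 to 96.7 of its lists. H3K4me3 peaks of nearly the same edges were called there in 3 libraries, with 366 bp in SR2 replicate 1, 410 bp in THC replicate 2 and 370 bp in Ctrl replicate 2, at percentiles of 24.96, 6.96 and 3.48 of their lists. Whether the calls at this place reflect H3K27me3 was not tested. Each of the remaining H3K27me3 peaks was called in 1 library. Phf1 had 317 bp in its flank in SR2 replicate 1, Kdm6b 319 bp at the gene end away from its H3K4me3 in Ctrl replicate 1, and Cbx2 and Cbx8 shared 346 bp between them in Ctrl replicate 2. The longest peak near any of the 41 genes was 1082 bp in the upstream flank of Cbx8 in Ctrl replicate 1, at percentile 12.02 of its list.

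Most, but not all, of the starts lay in CpG-rich sequence. Over the 33 genes with a start in the RefSeq promoter table, the 300-base promoter had a median GC content of 65.7% and 27 CpGs, against 62.7% and 23 at the 8281 promoters marked in all 6 libraries, and 56.7% and 14 at all 17492 promoters. The number of CpGs ran from 10 to 56 over the 33, and Pcgf2 (10), Men1 (11) and Kdm5c (13) were below the median of all promoters. Searched on both strands, CCAAT was in 11 of the 33 (33.3%, against 38.7% of all promoters and 39.0% of the marked ones). The E-box letters CACGTG were in 7 (21.2%, against 7.92% and 10.6%), among them Kdm6a and Cbx8, where they fall within the runs shown. CCGGAAG, an ETS motif (12.1% and 21.5%), TTTCGCGC, an E2F motif (0.492% and 0.857%), the NRF1 motif (1.36% and 2.49%) and the YY1 motif (1.01% and 2.05%) were in 0 of the 33. In Ctrl, H3K4me3 covered a median of 905.5 bp downstream and 619.5 bp upstream of the start at these 33 genes, against 754.5 and 383.5 bp at all 9761 genes with a start in the table that were tested, and more of it lay downstream at 72.7% of the 33 and 78.3% of all.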

How the data were processed

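The 12 libraries are CUT&Tag profiles, 6 for each mark. Per the submitters' processing notes the tools included cutadapt 5.2, Bowtie2 2.5.4, SAMtools 1.8, Picard, deepTools, MACS3 and bedtools, with the build mm10, and their roles are not given in the sources used here. The deposited files are peak lists, narrow for H3K4me3 and broad for H3K27me3, and the peak names carry a single library's name, so peaks were called per sample. Each deposited line holds a start, an end, a score, a fold enrichment (ratio) within the library, and a −log10 p and −log10 q. These are the authors' values and were used only to rank or filter peaks within a list. The lowest deposited −log10 q was 1.30 in H3K4me3 and 1.00 in H3K27me3 lists.

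Peaks on chromosomes 1 to 19, X and Y were merged within a library and the covered bp computed. Starts came from the RefSeq promoter table (GRCm38.p6, the assembly of mm10) for 17492 of 21887 protein-coding genes and 33 of the 41 genes described. For the other 4395, and for Kdm6b, Kmt2b, Setd1b, Ash2l, Cxxc1, Kdm5a, Cbx2 and Pcgf1, both gene ends were tried. Of several starts or ends, the one with the most covered bp summed over the 6 H3K4me3 libraries was used. Breadth, as log2 of covered bp with a pseudocount of 200, was tested over 12028 genes marked in at least 2 libraries with limma 3.58.1 (trend, R 4.3.3), fitting the 6 libraries together, centred on the 10098 genes marked in all 6, with Benjamini-Hochberg adjustment at 0.05. The method was tested on simulated data. Values in every library are given for genes that lacked a peak, had H3K27me3, were among the 3 broadest or narrowest in Ctrl or had the 3 smallest p of a comparison, and some others are given as group means or because they lay beside such a gene. Sequences to show were chosen after the values were seen, as was Ezh2 for full values. The members and lists were chosen with earlier results of these data known.

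Replicate numbers are batch numbers in the labels, which pairs the libraries. Deviations from the group mean correlated between libraries of the same number at −0.126 for SR2 and Ctrl, 0.00875 for THC and Ctrl and 0.0956 for THC and SR2, over 12028 genes. Alternatives were other pseudocounts, scalings, filters, windows and peak thresholds, a replicate block, and leaving out each library.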

Additional observations from a re-analysis of the deposited data

How the results depend on the processing

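With the replicate block 0 genes of the list and 0 of all genes passed by limma in each comparison, so the block changed no call. Without centring the median log2 change over the list was −0.052 (SR2 over Ctrl), −0.26 (THC over Ctrl) and −0.14 (THC over SR2). Likewise Kdm5c (−0.013) and Kmt2b (−0.11) changed sign for THC against Ctrl, as did Kdm1a for THC against SR2 with a window of 2 kb (−0.0120) or the full length of the peaks (−0.0121). When single libraries were left out, the number of genes called ran from 0 to 3420 of all genes and 0 to 14 of the list for THC against Ctrl, and from 0 to 2531 and 0 to 5 for THC against SR2, with the highest values without THC replicate 2. With the full length of the peaks 7 and 2 of all genes passed (THC against Ctrl and against SR2), and with equal list lengths of 11924 peaks 2 and 1, none of them of the list. The cause was not tested. Where a THC replicate was left out, the counts rest on a lone THC library, whose own spread cannot be measured.

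With at least 500 bp of peak, 1 gene was marked in neither SR2 and both Ctrl libraries (Kdm6b), and 1 in neither THC and both Ctrl or both SR2 libraries (Phf19). With a −log10 q of at least 5, 1 was marked in neither THC and both Ctrl libraries (Phf19). No share of all genes was computed for these rules. Kdm6b has no value among the genes marked in all 6 libraries. For H3K27me3, at least 500 bp of overlap left 1 gene in SR2 replicate 1 (0.754% of all genes), 0 in THC replicate 1 (0.941%), and 2 and 0 in Ctrl (2.504% and 0.416%). A −log10 q of at least 2 left 1 in THC replicate 1 (0.690%) and 2 in Ctrl replicate 1 (1.89%), and without flanks Ctrl replicate 2 had 1 (0.864%). Of the alternative values, 219 summary values and 153 of single genes kept their direction and side of the threshold or moved by less than the limits set. Another 24 summary values moved by more. Of single genes 4 values changed sign, and the rest crossed the threshold in fits with a lone THC library. The limit for the median over the list was 0.10 log2, wider than the medians themselves (0.06, 0.06 and 0.07), so staying within it says little. Depth is unknown for every library, and with 2 libraries per group a difference that misses the threshold is not shown to be absent.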
